A study of Mus musculus with 8 samples.

Results

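The transcripts of 10 secreted neuroendocrine proteins were followed in αTC1-6, an established line of mouse pancreatic alpha cells. They were transthyretin (Ttr) and the precursors of neuropeptide Y (Npy), cholecystokinin (Cck), neurotensin (Nts), galanin (Gal), ghrelin (Ghrl), PACAP (Adcyap1), the tachykinins (Tac1), secretin (Sct) and gastrin (Gast). Genes were taken by symbol, each matched to its Ensembl mouse gene ID, and all 10 were among the 75078 rows of the count table. RNA was measured in 8 libraries, 4 from cells transfected with an empty (stuffer) plasmid, called control libraries 31 to 34 here, and 4 from cells transfected with a plasmid that overexpresses Yy1, called Yy1 libraries 45 to 48. Yy1 is a zinc finger transcription factor that can activate or repress genes. Both groups received their plasmid in DMEM labelled 11 mM, 24 h after they were seeded, and neither the promoter that drives Yy1 nor the time of harvest is given in the sources used here. The labels give separate samples but no separate cultures, so the spread behind the p-values may be purely technical. The line is a single clone by origin, and fewer cells making a transcript and less of it per cell cannot be told apart in such bulk RNA.

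Peptide hormones are made as long precursors, which enter secretory granules, are cut by prohormone convertases and often receive an amide group at the end before release. Alpha cells are known for glucagon, but islet cells of several types also make small amounts of peptides better known from neurons and from endocrine cells of the gut. Transthyretin is not a peptide hormone: it carries thyroxine and, through retinol-binding protein, retinol, and alpha cells are known to make it. In the islet, PACAP is known to act on hormone release, ghrelin marks the rare epsilon cell, and gastrin is made in the fetal pancreas.

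The 3 peptide genes with a group mean of at least 1 CPM (counts scaled to library sizes after TMM normalisation) were Npy, Tac1 and Adcyap1, and the bases before their transcription starts are shown because Yy1 acts at promoters. The sequences come from RefSeq's mouse build GRCm38.p6, an older build than the GRCm39 named for the counts, and the window searched for each covers the 250 bases before RefSeq's annotated start. Capitals mark matches, on either strand, to GCCAT (the core of the YY1 motif; ATGGC on the other strand), TGACG (the short form of the cyclic AMP response element; CGTCA on the other strand) and TATAAA (the TATA box; TTTATA on the other strand). Tac1 lies on chromosome 6, plus strand, with the window at chr6:7554811-7555060, of which the first 68 bases, chr6:7554811-7554878, are printed because 1 Tac1 transcript of GENCODE release 21 starts after them. Npy lies on chromosome 6, plus strand, at chr6:49822460-49822709. Adcyap1 lies on chromosome 17, plus strand, at chr17:93198767-93199016, before the first of 2 annotated starts.
Tac1: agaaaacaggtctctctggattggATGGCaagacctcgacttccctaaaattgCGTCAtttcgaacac
Npy: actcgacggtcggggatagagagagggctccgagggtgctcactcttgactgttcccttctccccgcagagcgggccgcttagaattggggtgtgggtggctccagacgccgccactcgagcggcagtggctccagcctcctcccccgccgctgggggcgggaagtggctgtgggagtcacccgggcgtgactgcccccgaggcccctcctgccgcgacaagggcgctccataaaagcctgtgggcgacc
Adcyap1: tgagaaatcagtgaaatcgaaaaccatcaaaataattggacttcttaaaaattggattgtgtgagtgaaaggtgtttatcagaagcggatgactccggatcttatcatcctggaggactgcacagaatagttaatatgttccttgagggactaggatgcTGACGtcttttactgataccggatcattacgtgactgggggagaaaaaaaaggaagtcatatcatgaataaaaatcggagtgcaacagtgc
The Tac1 window held 1 YY1 core, from 226 to 222 bases before the start, and 2 short cyclic AMP response elements, from 197 to 193 and from 43 to 39 bases before it. The Npy window held none of these letters, and that of Adcyap1 held a short element from 91 to 87 bases before its start. A YY1 core was found in 32.9% of all 32851 windows of this length, a short element in 17.8% and a TATA box in 12.4%. Promoter windows of 9 of the genes were searched (Ttr was not), and 3 of these genes had a YY1 core in at least 1 window (Tac1, Ghrl and Nts). A short element was found for 4 (Tac1, Cck, Nts and Adcyap1) and a TATA box for 3 (Sct, Gast and Adcyap1). Ghrl had 4 windows, 1 of them with the core, and Adcyap1 had 2, with the TATA box only in the window not printed. Such counts of genes are therefore not the same measure as the shares of windows. The longer YY1 motif AANATGGC (GCCATNTT on the other strand), which contains the core, was in 0 of the 9 and in 3.91% of all windows. The full response element TGACGTCA, which contains the short form on both strands, was in 0 of the 9 and in 1.55% of all windows. GC content was 51.2% in the Tac1 window, 69.2% in that of Npy and 39.6% in that of Adcyap1, against a median of 52.4% over all windows. These matches are letters in a window and not measured binding. Npy, Tac1 and Ghrl all lie on chromosome 6.

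Libraries held from 20679565 to 33347196 counts, with the smallest total in control library 33, and where none is found as many as 3 are still possible, which is 0.0903 to 0.147 CPM. Yy1 itself stood at 175 ± 5.33 CPM in the controls and 5230 ± 464 CPM in the Yy1 group (SD, n = 4). The cells carried alpha cell markers: of 11 defining genes 10 were tested, and Gc was at 0 in every library. Of 9 beta cell markers 4 were tested, and the list summed to 110 to 116 CPM in the controls and 106 to 117 CPM in the Yy1 group. Nearly all of this came from Nkx6-1 (54.8 ± 2.1 and 51 ± 4.41 CPM; SD, n = 4) and G6pc2 (56.9 ± 3.03 and 59.2 ± 2.26 CPM; SD, n = 4), while Ins1, Ins2 and Ucn3 were at 0 in every library, as was Ppy, which defines PP cells. Markers of hepatocytes, which also make transthyretin, summed to 6.47 to 8.11 CPM in the controls and 5.18 to 7.18 CPM in the Yy1 group, and none of the 6 in the table was at 0 throughout. Stromal, immune and endothelial markers (7 genes, none at 0 throughout) summed to 1.72 to 2.63 and 2.02 to 3.34 CPM. Within this list, Ptprc, which marks blood cells, was higher in all Yy1 libraries (0.106 ± 0.0568 and 0.435 ± 0.166 CPM; SD, n = 4; 11 and 55 counts in all, not tested by edgeR). Cd68, a macrophage marker, was lower in all of them (1.14 ± 0.125 and 0.812 ± 0.103 CPM; SD, n = 4; edgeR adjusted p = 0.909). The groups overlapped for the other genes of this list. Among all 15916 tested genes, 378 were higher and 250 lower in every Yy1 library than in every control. Neuron markers (8 genes, none at 0 throughout) summed to 732 to 883 and 716 to 764 CPM, nearly all of it from Eno2 and Snap25, which endocrine cells also express. Of the other neuron markers, Slc32a1 stood at 4.48 ± 0.804 and 4.15 ± 0.136 CPM, Gad1 at 4.05 ± 0.563 and 3.84 ± 0.511 CPM and Gad2 at 0.613 ± 0.258 and 0.507 ± 0.236 CPM (SD, n = 4), and Rbfox3, Slc17a7 and Slc17a6 each had means of at most 0.185 CPM. The part of such cells in the results was not tested.

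Transthyretin stood far apart from the peptides in level. Per kb of transcript, Ttr was at 721 ± 18.7 CPM in the controls and 736 ± 19.2 CPM in the Yy1 group (SD, n = 4), and by CPM it ranked 80 among 15916 tested genes. Next in order, by the mean of the 8 libraries, came Npy (1.91 ± 0.0954 and 2.44 ± 0.203 CPM per kb), Tac1 (1.23 ± 0.129 and 2 ± 0.522 CPM per kb) and Adcyap1 (1.29 ± 0.251 and 1.35 ± 0.18 CPM per kb). In the controls alone Adcyap1 lay above Tac1. By CPM without regard to length, Adcyap1 was the highest peptide gene (means of 2.32 CPM in the controls and 2.42 CPM in the Yy1 group). Per kb, Ttr was 551 times Adcyap1. Below these were Cck (0.599 ± 0.557 and 0.668 ± 0.253 CPM per kb), Gast (0.381 ± 0.24 and 0.545 ± 0.141), Ghrl (0.28 ± 0.301 and 0.38 ± 0.116) and Sct (0.208 ± 0.105 and 0.434 ± 0.222). Gal (0.0855 ± 0.0855 and 0.0872 ± 0.0395 CPM per kb) and Nts (0 and 0.0121 ± 0.0241 CPM per kb) came last. Only the step from Ttr to Npy separated all libraries of neighbours in this order, and every other pair of neighbours overlapped. With the longest transcript as length, Sct moved to place 7 and Ghrl to place 8. For comparison, Gcg, which encodes proglucagon, was 33.5 times Ttr per kb.

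**Figure D1:**
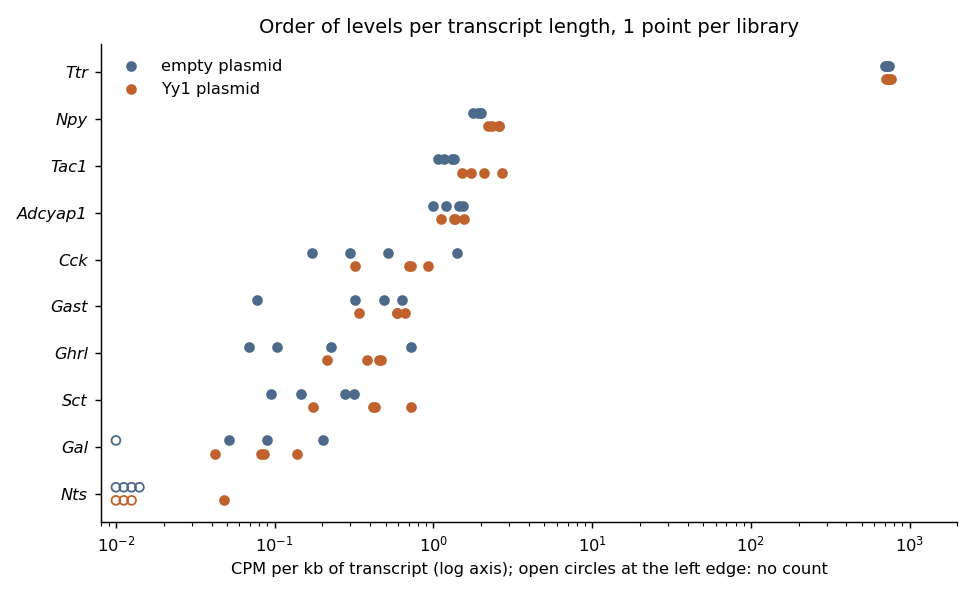
Level of each gene in CPM per kb of transcript (log axis), 1 point per library, ordered by the mean of the 8 libraries, with open circles for libraries without a count. Ttr sits at or above 703 CPM per kb in all libraries, while the 9 peptide genes sit at or below 2.71.

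The 2 groups were set against each other to see how overexpressed Yy1 bears on transcripts of the alpha cell line. None of the 10 genes was called by edgeR's quasi-likelihood test at an adjusted p under 0.05, where 82 of 15916 tested genes, or 0.515%, were called in either direction, and DESeq2 and limma-voom called 0 of the 10 as well. Of the 10, 5 passed the filter on low counts and were tested (Ttr, Npy, Cck, Adcyap1 and Tac1), and the other 5 (Nts, Gal, Ghrl, Sct and Gast) had too few counts. At an unadjusted p under 0.05 the test found 1 of the 5, Tac1, against 5.42% of all tested genes. Log2 fold changes of the 5 were all positive, from 0.031 to 0.71 with a median of 0.262, where the median over all tested genes was -0.002 and 48.6% were positive. Among the 4877 tested genes with an average log2 CPM under 2, where 4 of the 5 lie, the median was 0.042 and 56.1% were positive. The genes were chosen with earlier results of these data known, and the signs of Cck and Adcyap1 turned when certain single libraries were left out.

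The 4 control libraries held 26618, 22299, 17990 and 23309 Ttr counts, or 864, 839, 882 and 834 CPM. The Yy1 libraries held 27520, 26098, 29887 and 27799 counts, or 844, 879, 899 and 872 CPM. The groups overlapped, and the lowest library in the Yy1 group lay below 2 of the controls. The log2 fold change was 0.03 (SE 0.0394; 95% interval -0.051 to 0.113; edgeR adjusted p = 0.993). On the fold scale this interval runs from 0.966 to 1.08, the narrowest of the 5. Ttr took from 0.0835% to 0.0896% of all counts in a library. Its CPM varied by 2.6% and 2.61% (coefficient of variation) within the groups. With 201520 counts in all, the spread of Ttr between libraries was larger than counting error alone (chi-square over its degrees of freedom, 13.8 among controls and 19.5 in the Yy1 group).

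Tac1, which encodes substance P and neurokinin A, had the largest difference among the 5. In the controls it had 30, 29, 23 and 25 counts, or 0.974, 1.09, 1.13 and 0.895 CPM. In the Yy1 group it had 41, 67, 48 and 55 counts, or 1.26, 2.26, 1.44 and 1.72 CPM. All Yy1 libraries lay above all of the controls, and Yy1 library 46 was highest. Its spread was below counting error among controls and above it in the Yy1 group (chi-square over its degrees of freedom, 0.286 and 3.52). Fitted over all libraries, its log2 fold change was 0.71 (SE 0.227; 95% interval 0.24 to 1.179), with an unadjusted p of 0.00479 and an edgeR adjusted p of 0.389, so it was not called. By unadjusted p it ranked 196 of the 15916 genes. Without Yy1 library 46 the log2 fold change was 0.53 (edgeR adjusted p = 0.927), and with counts thinned to the smallest library it was 0.585 (edgeR adjusted p = 0.757). Within odd sample numbers the group means differed by 0.3 CPM and within even ones by 0.997 CPM. Both were higher in the Yy1 group, which must follow where the groups do not overlap and adds no support.

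Npy, whose product is a neurotransmitter of sympathetic nerves and of the hypothalamus, also had groups that did not overlap. It had 31, 30, 22 and 31 counts in the controls, or 1.01, 1.13, 1.08 and 1.11 CPM. In the Yy1 group it had 43, 37, 49 and 47 counts, or 1.32, 1.25, 1.47 and 1.47 CPM. The difference was small. Libraries of each group lay closer together than counting error alone gives on average (chi-square over its degrees of freedom, 0.0793 among controls and 0.298 in the Yy1 group). Such tightness limits what the lack of overlap can show. For Npy the log2 fold change was 0.35 (SE 0.21; 95% interval -0.082 to 0.786; edgeR adjusted p = 0.947). Libraries did not overlap, with the Yy1 libraries higher, for 2 of the 5, Npy and Tac1, against 2.37% of all tested genes and 4.39% of those with an average log2 CPM under 2. An exact two-sided permutation test on log2(CPM + 1) returned p = 0.0286 for each, not adjusted for the 10 genes so tested. It is the smallest that 70 arrangements of 4 against 4 libraries allow. Groups without overlap must give this value, so it adds no support beyond the lack of overlap.

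**Figure D2:**
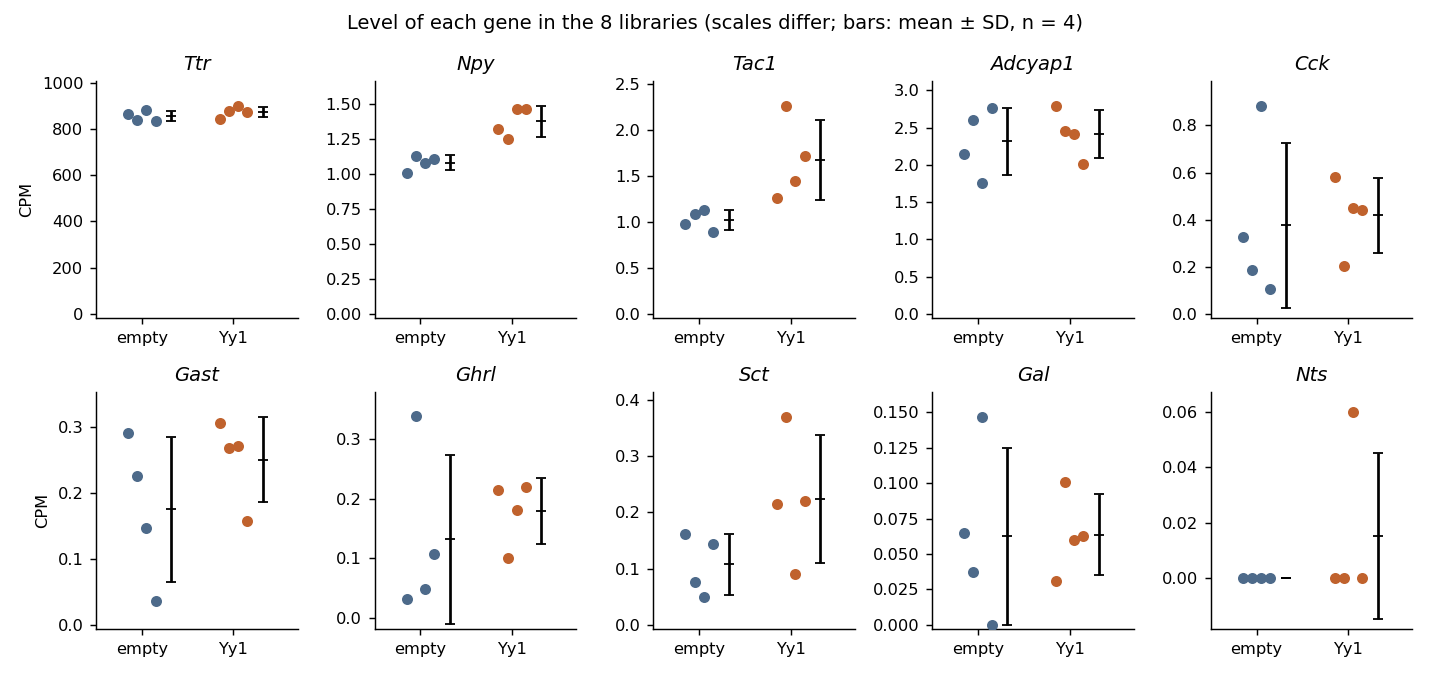
CPM of each gene in each library by group, with the mean and SD (n = 4) beside the points and a scale of its own in each panel. Only in the panels of Npy and Tac1 do all Yy1 libraries lie above the controls, while Nts has counts in 1 library.

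Adcyap1 encodes PACAP, a peptide that raises cyclic AMP in its target cells. It had 66, 69, 36 and 77 counts in the controls, or 2.14, 2.6, 1.76 and 2.76 CPM. In the Yy1 group it had 91, 73, 80 and 64 counts, or 2.79, 2.46, 2.41 and 2.01 CPM. The groups overlapped over most of their range, and the highest library was in the Yy1 group and the lowest among the controls. The log2 fold change was 0.05 (SE 0.174; edgeR adjusted p = 0.997), and its 95% interval on the fold scale, 0.808 to 1.33, does not exclude changes of such size. Its sign turned without control library 33 (-0.045) or Yy1 library 45 (-0.026).

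Cck and Gast encode the precursors of cholecystokinin and gastrin, related peptides that share the same receptor-binding end. Cck had 10, 5, 18 and 3 counts in the controls, or 0.325, 0.188, 0.882 and 0.107 CPM, and 19, 6, 15 and 14 counts in the Yy1 group, or 0.583, 0.202, 0.451 and 0.439 CPM. The highest and the lowest of all 8 libraries were both controls, whose counts spread beyond counting error (chi-square over its degrees of freedom, 7.96). The log2 fold change of Cck was 0.26 (SE 0.499; 95% interval -0.78 to 1.305; edgeR adjusted p = 0.997). Without control library 33 it was 0.99 (edgeR adjusted p = 0.751) and without control library 34 it was -0.06 (edgeR adjusted p = 0.992). Gast had 9, 6, 3 and 1 counts in the controls and 10, 8, 9 and 5 in the Yy1 group. The groups overlapped, and the ratio of the summed rates was 1.4, with an exact 95% interval from 0.768 to 2.61 that covers counting error only.

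**Figure D3:**
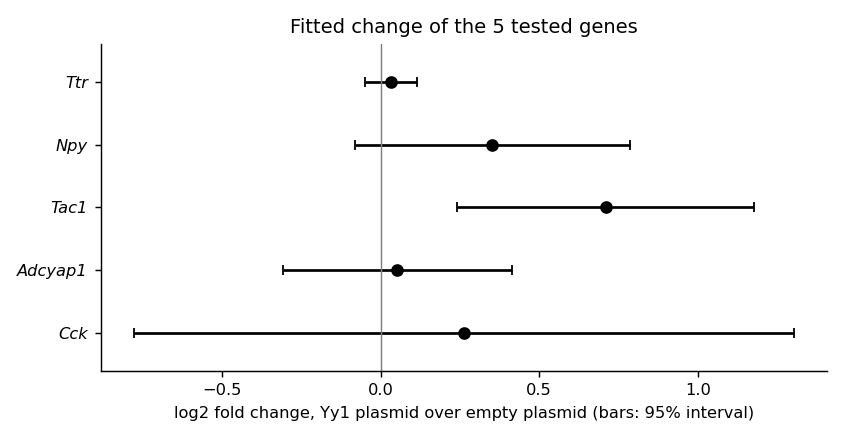
Fitted log2 fold change (Yy1 plasmid over empty plasmid) of the 5 tested genes with 95% intervals. The interval of Ttr is narrow and spans 0, that of Tac1 lies above 0 and that of Cck is the widest.

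The remaining genes had low counts, at most 11 in any library. Ghrl, the ghrelin gene, had 1, 9, 1 and 3 counts in the controls and 7, 3, 6 and 7 in the Yy1 group. Control library 32 was the highest of all 8 libraries at 0.339 CPM, and the ratio of summed rates was 1.36 (exact 95% interval 0.672 to 2.86, counting error only). Ghrl overlaps 2 genes on the opposite strand, Gm26982 and Gm44033, and since the sources used here do not say whether strand was used in counting, reads of these cannot be told apart with certainty. Sct, the secretin gene, had 5, 2, 1 and 4 counts in the controls and 7, 11, 3 and 7 in the Yy1 group. Its ratio of summed rates was 1.94 (exact 95% interval 0.953 to 4.18, counting error only), and Yy1 library 47 lay below control libraries 31 and 34. Over libraries, the same exact two-sided permutation test returned p = 0.114 for Sct, 0.286 for Gast and 0.514 for Ghrl. Gal, the galanin gene, had 2, 1, 3 and 0 counts in the controls and 1, 3, 2 and 2 in the Yy1 group, at most 3 in any library. Nts, the neurotensin gene, had 0 counts in 7 of 8 libraries and 2 counts in Yy1 library 47. For Gal and Nts no difference was detectable at this depth.

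Summed over the 9 peptide genes, levels were 5, 5.68, 5.25 and 5.15 CPM in the controls and 6.72, 7, 6.44 and 6.3 CPM in the Yy1 group. The lowest library in the Yy1 group thus lay above the highest in the controls. This sum contains Npy and Tac1, whose own libraries did not overlap, while the groups of every other peptide gene overlapped. Its separation is therefore not a result apart from those 2 genes. Group means of this sum were 5.27 ± 0.294 and 6.62 ± 0.31 CPM (SD, n = 4). Tac1, Npy and Adcyap1 made up most of it. With counts thinned to the smallest library the sums were 5.13, 5.61, 5.17 and 5.27 CPM in the controls. In the Yy1 group they were 6, 7.11, 6.43 and 6.04 CPM, with no overlap and with the same 2 genes included.

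Receptors of these peptides were read from the same libraries. Of 21 receptor genes 7 were tested, 5 with positive and 2 with negative log2 fold changes and a median of 0.033, and edgeR called 0. At an unadjusted p under 0.05 there was 1, Vipr1. Per kb the highest were Sort1, a sorting receptor that binds neurotensin, at 33.6 CPM per kb in the mean of all libraries, and Cckbr, the receptor for gastrin and cholecystokinin, at 17.1 CPM per kb. Cckbr stood at 33.5 ± 3.65 CPM in the controls and 33.3 ± 1.7 CPM in the Yy1 group (SD, n = 4), a log2 change of -0.01 (SE 0.0652) at an edgeR adjusted p of 0.997. Ghsr, the ghrelin receptor, which delta cells are known for, stood at 20.2 ± 1.34 and 21.8 ± 0.742 CPM (SD, n = 4). Its log2 change was 0.11 (SE 0.0629) at an edgeR adjusted p of 0.947. Among the other delta cell markers listed, Sst had 1 count in each group. Hhex stood at 0.351 and 0.513 CPM and Rbp4 at 1680 and 1740 CPM. Vipr1, a receptor of VIP that also binds PACAP, had 1.69, 2, 1.27 and 2.93 CPM in the controls and 2.33, 2.79, 2.89 and 2.98 CPM in the Yy1 group, and the groups overlapped. Its log2 fold change was 0.46 (SE 0.199; edgeR adjusted p = 0.826).

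Peptides and their receptors differed in which side was present. Named for their role and after their values were seen, Npy1r stood at 6.97 CPM per kb beside Npy, and Galr1 at 1.75 CPM per kb beside a nearly absent Gal. For the tachykinins the receptors were the side near 0, and for secretin both sides were low, with 0.0178 CPM per kb for Tacr1, 0.00527 for Tacr2, 0.00102 for Tacr3 and 0.00397 for Sctr. Adcyap1r1, the receptor selective for PACAP, was at 0.111 CPM per kb and Vipr1 at 0.482. No count was found in any library for Npy2r, Npy6r or Cckar.

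**Figure D4:**
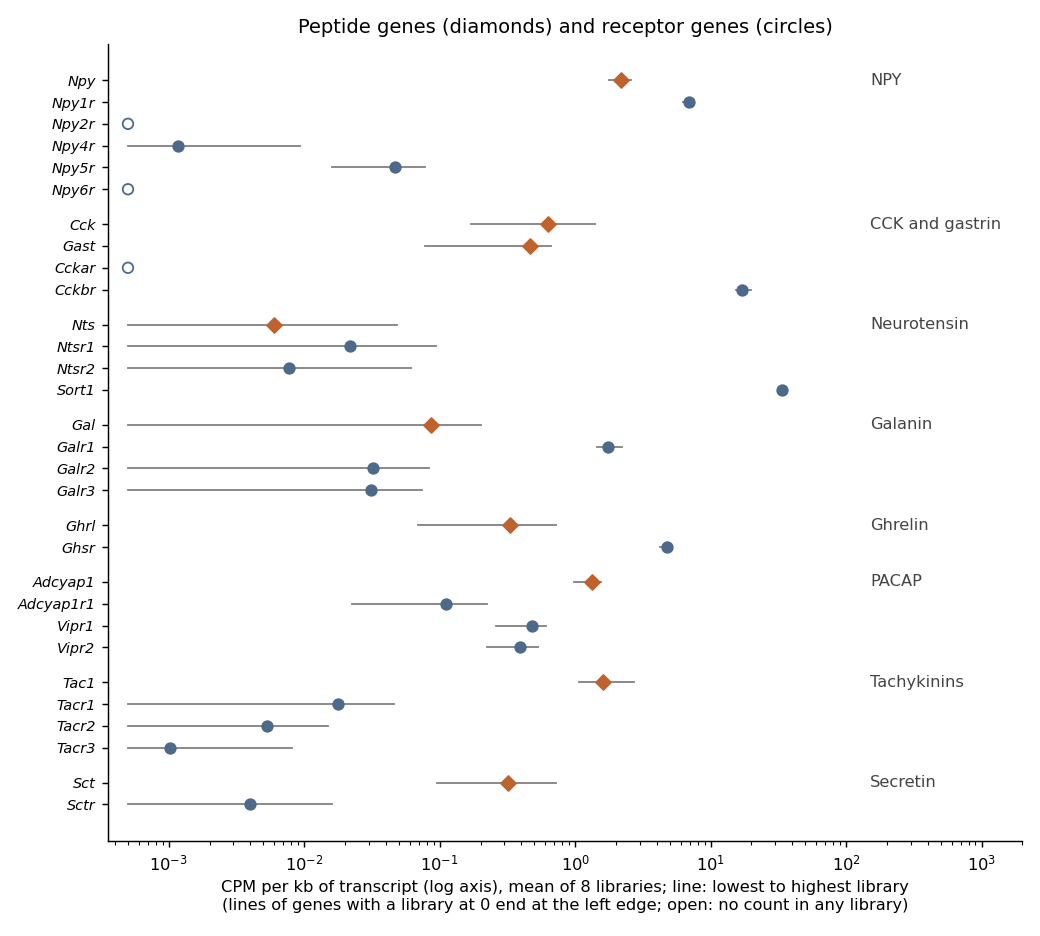
Level of each peptide gene (diamonds) and its receptor genes (circles) in CPM per kb of transcript (log axis), as the mean of 8 libraries, with lines from the lowest to the highest library and open symbols for genes without a count. Cckbr (17.1), Npy1r (6.97) and Ghsr (4.74) exceed their peptide genes, while receptors of tachykinins and secretin lie at or below 0.0178.

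The enzymes and helpers that mature these peptides ranged widely in level. Of 20 maturation genes 18 were tested, 13 with positive and 5 with negative log2 fold changes and a median of 0.022, and edgeR called 0. At an unadjusted p under 0.05 there were 2, Qpct and Qpctl, both higher in the Yy1 group. Pam, which makes the end amide of many of these peptides, was at 761 CPM per kb and Pcsk2, the main convertase of alpha cells, at 604 CPM per kb. The log2 fold change was 0.003 for Pam (SE 0.0387) and 0.04 for Pcsk2 (SE 0.04), with edgeR adjusted p values of 0.997 and 0.993. Named for their role after their values were seen, the convertase Pcsk1 was at 0.424 CPM per kb. Mboat4, which attaches the fatty acid to ghrelin, was at 0.051 CPM per kb, with 15 counts in the control libraries and 5 in the Yy1 libraries.

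Qpct, which closes the N-terminal glutamine of peptides such as neurotensin and gastrin into pyroglutamate, came closest to the threshold. It had 0.162, 0.151, 0.294 and 0.179 CPM in the controls and 0.491, 0.539, 0.512 and 0.941 CPM in the Yy1 group. The libraries did not overlap, and Yy1 library 48 was the highest. With 5, 4, 6 and 5 counts in the controls, Qpct passed the filter on low counts only through its Yy1 libraries. It could thus be tested only because it was high there, which limits what its lack of overlap and its p-value can show. The log2 fold change was 1.68 (SE 0.402; 95% interval 0.847 to 2.514; edgeR adjusted p = 0.0652), on 20 and 79 counts in all. Its relative Qpctl, a Golgi enzyme of the same reaction, had 20.7 ± 1.14 and 23 ± 1.06 CPM (SD, n = 4), a log2 change of 0.15 (SE 0.0617) at an edgeR adjusted p of 0.787.

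Other peptide precursors were largely absent from the line. Of 53 listed genes 12 were tested and 13 had no count in any library. Of the 12, 4 had positive and 8 negative log2 fold changes with a median of -0.094, and edgeR called 0. At an unadjusted p under 0.05 there was 1, Adm, which was lower in the Yy1 group. Among the listed genes not tested, Npb, named after its values were seen, was lower in every Yy1 library than in every control. It had 0.399 ± 0.19 and 0.165 ± 0.0311 CPM (SD, n = 4), on 42 and 21 counts in all. Besides Gcg, the highest per kb was Cartpt, the CART peptide gene, at 9.06 CPM per kb, with 8.72 ± 1.02 and 9.99 ± 1.09 CPM (SD, n = 4), a log2 change of 0.19 (SE 0.0985) at an edgeR adjusted p of 0.912. Adm, which encodes the vasodilator adrenomedullin, had 13.1, 18.4, 11.2 and 13.3 CPM in the controls and 11.4, 10.9, 10.1 and 10.9 CPM in the Yy1 group. Control library 32 was highest, the groups overlapped, and the log2 fold change was -0.38 (SE 0.121; unadjusted p = 0.00793, edgeR adjusted p = 0.511). The 7 granins and related granule proteins, which share the peptides' granules, had log2 fold changes from -0.085 to 0.018 with a median of -0.008, 2 positive and 5 negative, and edgeR called 0. Chga was at 1540 and Scg2 at 1030 CPM per kb. Log2 fold changes were 0.01 (SE 0.0483) for Chga and -0.01 (SE 0.0542) for Scg2, -0.09 (SE 0.134) for Chgb and -0.04 (SE 0.0788) for Nucb2.

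Partners of transthyretin were compared as well. Of 16 genes for carriers, receptors and enzymes of retinol and thyroid hormone, 5 were tested, 3 with positive and 2 with negative log2 fold changes and a median of 0.032, and edgeR called 0. Rbp4, the retinol-binding protein that travels in blood bound to transthyretin, was at 2220 CPM per kb, above Ttr. It stood at 1760, 1780, 1490 and 1710 CPM in the controls and 1820, 1720, 1740 and 1660 CPM in the Yy1 group. The groups overlapped, with the lowest value in control library 33 (log2 fold change 0.04, SE 0.0505, edgeR adjusted p = 0.993). Thra, a thyroid hormone receptor, was at 44.2 CPM per kb with a log2 fold change of -0.01 (SE 0.0413). Stra6, a receptor for retinol-binding protein, had 0.437 ± 0.218 and 0.273 ± 0.135 CPM (SD, n = 4), a log2 change of -0.70 (SE 0.443) at an edgeR adjusted p of 0.953.

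**Figure D5:**
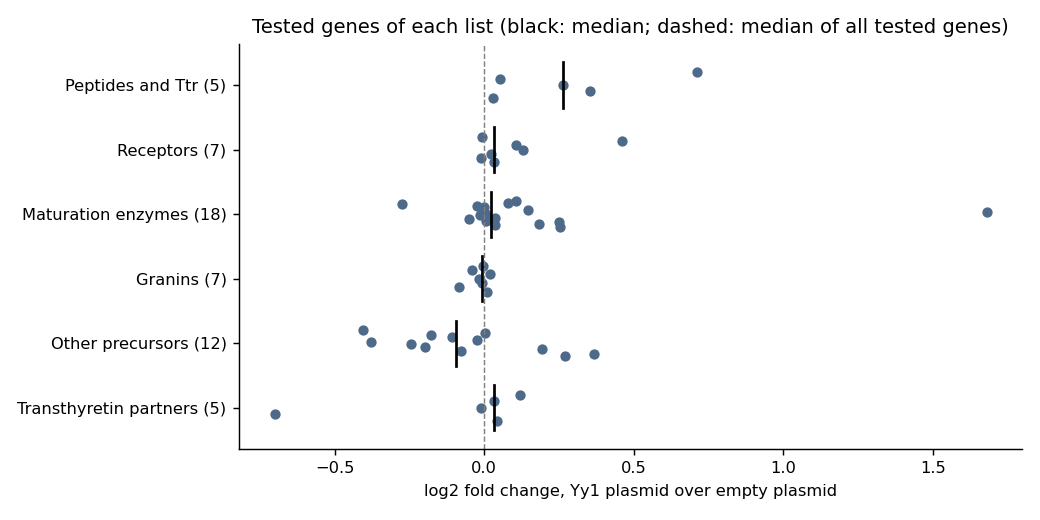
Log2 fold changes (Yy1 plasmid over empty plasmid) of the tested genes of each list, with the number tested in brackets, black lines at the medians and a dashed line at the median of all tested genes. Among the 6 lists shown, most points lie near 0, with Qpct at 1.68, Tac1 at 0.71 and Stra6 at -0.70 farthest out.

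Among 11038 other genes with an average log2 CPM of at least 2, those whose log2(CPM + 1) followed Ttr most closely over the 8 libraries were Hdac11, a histone deacetylase (Pearson r = 0.961, Spearman rho = 0.976), and Dbi, an acyl-CoA binding protein (r = 0.928, rho = 0.929). Without the 2 libraries farthest from the median of Ttr, control library 34 and Yy1 library 47, r was 0.955 and 0.882. These are descriptions over libraries that share depth and handling, picked as the highest of all genes compared. Hdac11 had 72.3 ± 5.16 and 76.7 ± 3.57 CPM (SD, n = 4), a log2 change of 0.09 at an edgeR adjusted p of 0.946, and Dbi 58.3 ± 4.9 and 60 ± 2.8 CPM (SD, n = 4), a log2 change of 0.04 at an edgeR adjusted p of 0.993.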

How the data were processed

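Poly(A) RNA from 8 samples was made into strand-specific libraries, per the labels' protocols. The tools fastp and kallisto and the mouse build GRCm39 stand in the submitters' processing notes, with no versions given there. The authors deposited estimated counts per gene, made from these reads and not scaled for depth, and these expected counts were rounded here. How transcripts were summed to genes is not given in the sources used here. Symbols and transcript lengths came from GENCODE mouse release 21, of an older build, with lengths averaged over protein-coding transcripts, and it matched 48278 of 75078 IDs. The filter, filterByExpr, kept genes at a CPM equal to about 10 counts at median depth in at least as many libraries as 1 group holds. It also asked for 15 counts in total, and a gene could pass through 1 group alone. After TMM scaling, a two-sided quasi-likelihood test was run in edgeR 4.0.16 under R 4.3.3. P-values were adjusted after Benjamini and Hochberg over 15916 genes, with calls under 0.05. Standard errors are the log2 fold change divided by the square root of F. Replicate pairs differed by more than sampling noise (chi-square per degree of freedom 2.92 to 13.9). Intervals from counts hold counting error alone, because several reads can stem from 1 molecule.

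The members and lists were chosen with earlier results of these data known. The naming rule took all members and Yy1, from each list the 2 highest genes per kb, the 2 with the smallest p and any called, and the 2 genes most like each member with a mean of 2 or more in log2 CPM. Other settings tried were no filter, 1 CPM in 4 libraries, scaling by RLE, by upper quartile or by total alone, scaling without Yy1, DESeq2 1.42.0, limma-voom (limma 3.58.1), a term for odd or even sample numbers, a pseudocount of 0.1, the longest transcript and each library left out. Thinning to equal depth was added after seeing the data.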

Additional observations from a re-analysis of the deposited data

Results flagged for a closer look

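Nts was at 0.0602 CPM in Yy1 library 47 and at 0 in the other libraries of its group, which made this library stand far from the rest. The value rests on only 2 counts. It was the only such case among the 19 groups of 4 libraries checked. Chance gives about 1 in 20 for normally distributed values, which such low counts are not. With the other libraries of the group at 0, any count in this library had to be flagged.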

How the results depend on the processing

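The number of members called was 0 under each of the 18 alternatives, DESeq2 and limma-voom included. Over these the log2 fold change ran from 0.016 to 0.046 for Ttr, 0.314 to 0.395 for Npy and 0.533 to 0.823 for Tac1, whose edgeR, DESeq2 or limma adjusted p ran from 0.234 to 0.927. Signs turned for Adcyap1 without control library 33 (-0.045) or Yy1 library 45 (-0.026), and for Cck without control library 34 (-0.061). With single libraries left out Adcyap1 ran from -0.045 to 0.146 and Cck from -0.061 to 0.993. Cck did not pass the filter with 1 CPM in 4 libraries or when thinned to the smallest library, so these gave no value for it. The number of all genes called was 174 with no filter and 54 with 1 CPM in 4 libraries, against 82. It ran from 65 to 87 with single libraries left out. With the longest transcript as length, Ghrl took place 8 and Sct place 7. A pseudocount of 0.1 changed no direction and no side of the threshold in the exact permutation tests. No paired analysis was possible because the groups share no sample numbers. Depth limits Nts, Gal, Ghrl, Sct and Gast, with at most 51 counts each over all libraries.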
